A study of Arabidopsis thaliana with 32 samples.

Results

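A set of 54 probe sets, of 22746 that measured Arabidopsis transcripts, rose during 3 h of heat in both shoots and roots and had lost most of that signal after 1 h at normal temperature. The members were chosen from the measured values: in each tissue the group mean of log2(signal + 11) was at least 2 higher at 3 h than at 0.25 h of heat, and at 1 h of recovery it was at least 2 below 3 h of heat. In all, 65 probe sets met these conditions, and 11 were then left out by name: HSP15.7, HSP18.5, HSP23.5, HSP26.5, HSC70-3, Fes1A and the loci AT1G21550, AT1G66080, AT1G71000, AT2G20560 and AT5G10695. No organelle-encoded gene was among the 65. Of the 54 members, 28 matched 1 gene each (28 loci, of which 10 lie on chromosome 1, 2 on chromosome 2, 4 on chromosome 3, 6 on chromosome 4 and 6 on chromosome 5), and the other 26 are unnamed here. The annotation calls 27 of the named loci protein coding and AT3G17110 a transcribed pseudogene. All but SGT1A carry only a locus tag in the gene table, so the families given below are background knowledge about those loci.

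The plants were wild-type Col-0 seedlings grown on Murashige and Skoog medium at 24 °C under 16 h days. On day 16, 3 h into the light, they were moved to 38 °C, and shoots and roots were sampled after 0.25, 0.5, 1 and 3 h. Further plants were returned to 25 °C after 3 h of heat and sampled 1, 3, 9 and 21 h later. Each of the 16 groups, shoots and roots at 8 times, had 2 ATH1 arrays, 32 in all, and the labels do not say whether the 2 came from separate plants, so p-values reflect the spread between arrays of a group and nothing wider. No unheated plants were among them. The baseline was the plants at 21 h of recovery, taken at the same time of day as the start of the treatment, 1 day on; the other times differ from it in clock hour as well as in treatment, which cannot be told apart.

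Heat unfolds proteins, and plant cells answer within minutes by transcribing genes for chaperones, which refold them, and for parts of the ubiquitin system, which tags proteins beyond repair for the proteasome. Heat shock factors, the transcription factors behind this answer, are held inactive by chaperones and are bound again once enough free chaperone is present, so the answer is known to be self-limiting. How fast an RNA is lost afterwards depends both on how soon transcription stops and on how stable the RNA is. Arrays measure the level only and separate neither process. In whole shoots and roots, a change in the number of cells of a type and a change in RNA per cell cannot be told apart either.

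Arrays within a group correlated at 0.984 to 0.993 over all probe sets on the log2 scale, and median signal per array was 31.6 to 49.0. The tissue labels were borne out by photosynthesis genes: 5 shoot markers summed to 13106 to 21995 units of signal in shoots and to 183 to 1202 in roots. Only 2 root hair markers could be named, EXPA7 and EXPA18. They were dim, with sums of 20.2 to 46.2 in shoots and 31.3 to 155 in roots over all times, ranges that overlap. Within a time, both were lower in shoots at 0.5 h and 1 h of heat and at 3 h and 21 h of recovery. Their median log2 differences were −0.57, −1.22, −1.21 and −0.95 in that order (unadjusted p under 0.05 in limma for both at each time). The control probe set for 25S ribosomal RNA moved with time, averaging 146, 112, 1916 and 2405 in shoots and 722, 2415, 2322 and 3080 in roots over the 4 heat times. It averaged 203, 1289, 679 and 104 in shoots and 840, 2227, 425 and 456 in roots over the 4 recovery times. The shoot mean at 9 h of recovery joins 1270 on replicate 1 and 88.6 on replicate 2. A sign of RNA quality, the ratio of signal from the 3′ end to that from the 5′ end of actin, averaged 4.74, 4.84, 9.81 and 13.7 in shoots and 10.97, 14.9, 20.4 and 19.4 in roots over the heat times, and 7.23, 8.71, 6.58 and 5.39 in shoots and 10.03, 13.5, 13.6 and 12.5 in roots over the recovery times. The same ratio from another pair of actin control probe sets lay between 1.81 and 2.58 in all 16 groups. The part of these controls in the results below was not tested.

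Taken as a sum, the members made up a small share of the array. In shoots the 54 probe sets held 0.108, 0.472, 2.63 and 1.93% of all signal after 0.25, 0.5, 1 and 3 h of heat, and 0.128, 0.0680, 0.157 and 0.135% after 1, 3, 9 and 21 h of recovery (means of 2 arrays, SD at most 0.166). In roots the shares were 0.213, 0.513, 2.497 and 2.80% during heat and 0.379, 0.190, 0.356 and 0.204% during recovery (SD at most 0.108). The mean share was thus highest at 1 h of heat in shoots and at 3 h in roots. It was lowest at 3 h of recovery in both tissues and higher again at 9 h. In roots the arrays at 3 h of recovery, 0.172 and 0.208%, lay on either side of those at 21 h, 0.205 and 0.203%. Low shares at 0.25 h of heat and 1 h of recovery and high shares at 3 h of heat follow from the selection. Bright probe sets weigh most in such a sum, and 7 of the 10 brightest members are unnamed.

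**Figure D1:**
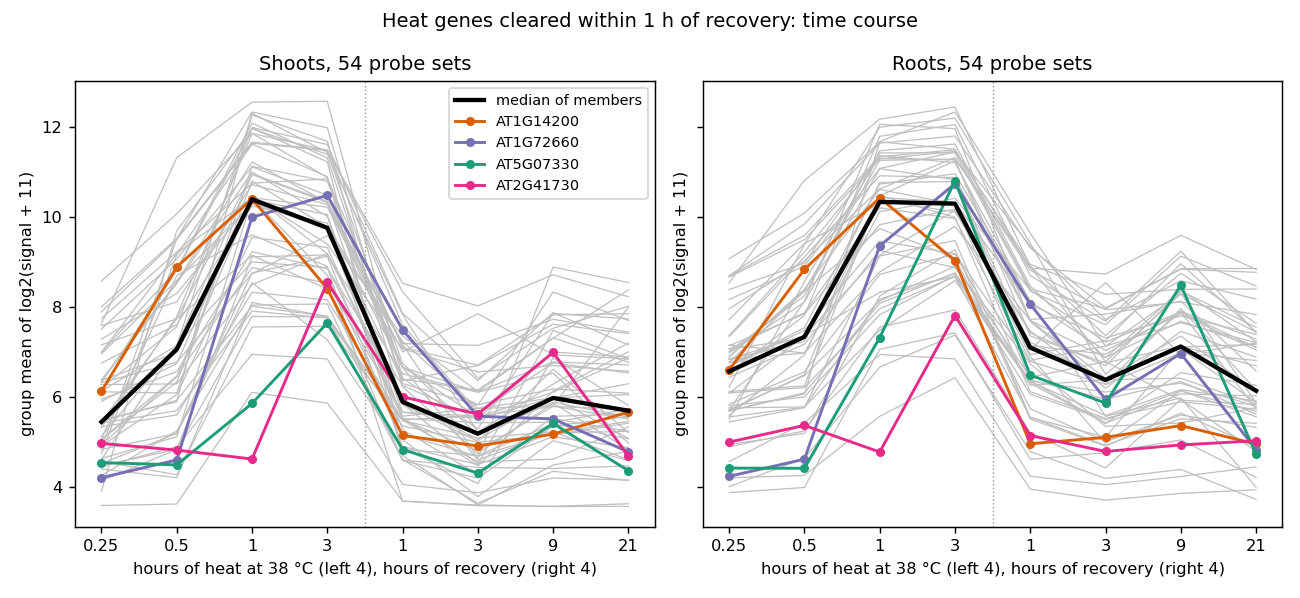
Group means of log2(signal + 11) for the 54 members (grey lines) and their median (black) in shoots and roots, with hours of heat on the left and hours of recovery on the right of the dotted line. Most members climb between 0.5 h and 1 h of heat and are back near their starting level at 1 h of recovery, while AT2G41730 and AT5G07330 climb last. AT1G14200 had reached the highest share of its 3 h signal at 0.5 h of heat, 146% in shoots and 87.1% in roots.

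By the conditions of selection, the members rose by a median of 3.43 log2 units in shoots and 3.29 in roots between 0.25 h and 3 h of heat, and changed by −3.34 and −2.80 between 3 h of heat and 1 h of recovery. These values describe the selection and were not tested. All 54 passed the filter on low signal, for which high signal at 3 h of heat alone was enough. Passing it therefore says nothing about signal at other hours. At 3 h of recovery in shoots the members had a median signal of 25.2 and a lowest of 0.904. What was left after 1 h of recovery was a median of 7.23% of the 3 h signal in shoots (0.373 to 20.2%) and 11.4% in roots (3.91 to 23.7%). The share left was smaller in shoots than in roots for 45 of the 54 members. Both hours in that share chose the members, so the count was not tested, and no share of all probe sets was counted. Median member signal at 0.25 h of heat was 32.4 in shoots and 83.9 in roots. Its part in the shares left was not tested. At the edge of the rule, AT2G41160 and 2 unnamed probe sets passed with smallest margins of 2.04 to 2.09. AT2G33735, AT3G49790 and an unnamed probe set missed it with 1.98 to 1.99.

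**Figure D2:**
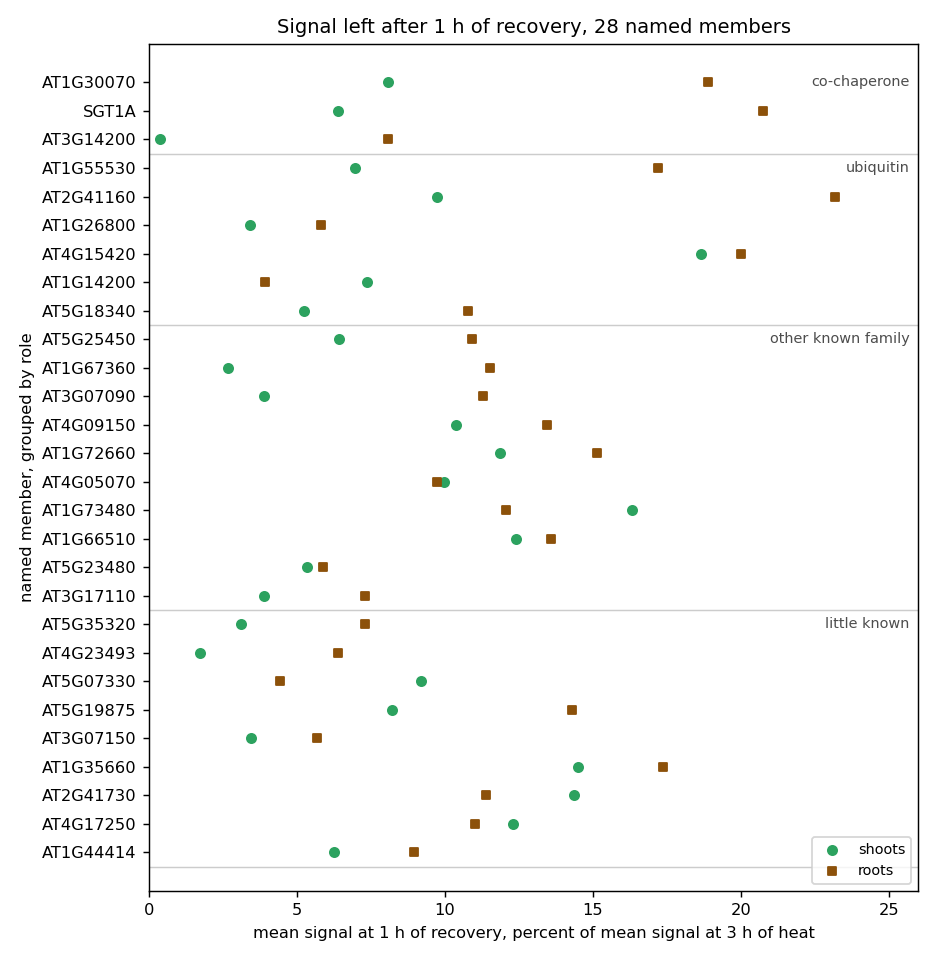
Mean signal at 1 h of recovery as a percentage of mean signal at 3 h of heat (2 arrays each) for the 28 named members, in shoots (circles) and roots (squares), grouped by role and ordered by signal within a role. AT3G14200 in shoots lies at 0.373% and AT2G41160 in roots at 23.2%, and for most members the shoot point lies to the left of the root point. Both hours chose the members, and the difference between tissues was not tested.

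The timing of the rise was tested at hours that had not entered the selection. Because the members had to rise between 0.25 h and 3 h of heat, these tests place the rise in time and do not show anew that it happened. A probe set passed where limma's adjusted p was below 0.05 and the log2 difference was at least 1 in size. Differences are on the log2(signal + 11) scale, which understates changes at low signal. From 0.5 h to 1 h of heat, 52 of 54 members rose in shoots and 51 in roots, 50 of them in both tissues, and none fell. At an unadjusted p under 0.05, limma counted 0 members lower in shoots and 1 in roots. Among all 16782 probe sets tested, 2.43% rose and 1.41% fell in shoots, and 2.16% rose and 0.953% fell in roots. The median log2 difference was 2.66 among members, against −0.11 among all probe sets, in shoots, and 2.17 against −0.13 in roots. The 25S ribosomal RNA control averaged 1916 at 1 h and 112 at 0.5 h in shoots, and 2322 and 2415 in roots. The first of the actin ratios averaged 9.81 at 1 h and 4.84 at 0.5 h in shoots, and 20.4 and 14.9 in roots, while the second averaged 2.18 and 2.28 in shoots and 2.53 and 2.17 in roots. Their part in these rises was not tested.

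At 0.5 h of heat the rise had already begun for fewer members. Relative to 21 h of recovery, 23 members were higher in shoots (background 1.24% higher and 0.572% lower) and 17 in roots (background 1.39% and 0.197%), with none lower (4 in shoots and 0 in roots at an unadjusted p under 0.05). The 16 that were higher in both tissues make up 69.57% of the shoot calls and 94.12% of the root calls. The 8 named among them were AT1G14200, AT1G26800, AT1G55530, AT3G07090, AT3G14200, AT4G05070, AT5G25450 and SGT1A. The calls of AT5G25450 were lost in shoots without replicate 1 at 0.5 h (0.83) and in roots without replicate 1 at 21 h of recovery (0.86). The replicates of shoots at 0.5 h were not alike: 48 of 54 members were higher on replicate 1, by a median of 0.56 log2 units, whereas the median over all probe sets was −0.05. Without one or the other of these arrays the shoot count ranged from 18 to 28. At 1 h of heat 53 members were above 21 h of recovery in both tissues (background 3.41% higher and 4.09% lower in shoots, 3.58% and 2.22% in roots), AT2G41730 being the exception in each.

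The step from 0.5 h to 1 h of heat differed between tissues for 8 of the 54 members, 7 with the larger rise in shoots and 1 with the larger rise in roots (background 1.66% and 1.09%). The 3 named among them were AT4G23493, AT4G17250 and AT5G07330, whose products are little known. Without replicate 1 of shoots at 0.5 h the count was 13, and AT4G17250 no longer passed without replicate 2 of shoots at 0.5 h (0.82).

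**Figure D3:**
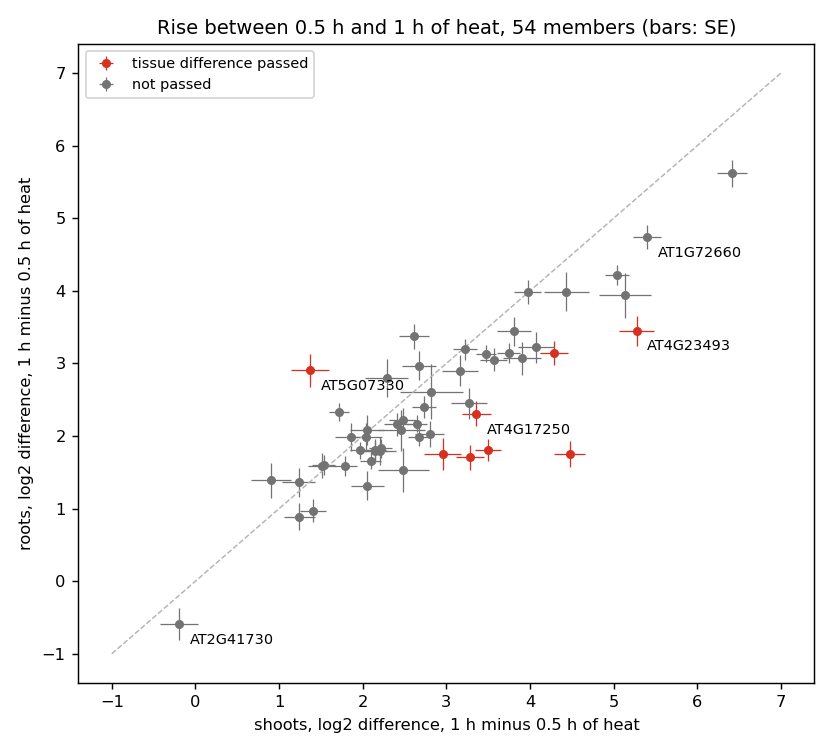
Log2 difference of 1 h minus 0.5 h of heat for each member in shoots (x) and roots (y), with standard errors from the model; the dashed line marks equal values. Red points passed the test of the difference between tissues, AT4G23493 and AT4G17250 with the larger rise in shoots and AT5G07330 with the larger rise in roots, and AT2G41730 lies below 0 on both axes.

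At 0.5 h of heat against 21 h of recovery, unnamed members reached log2 differences of 6.13 in shoots and 4.57 in roots. The named members with the largest differences there were the same in both tissues. They were the J-domain protein AT3G14200, which belongs to the co-chaperones that hand clients to HSP70, and the RING-type proteins AT1G14200 and AT1G26800, a fold typical of ubiquitin ligases. AT3G14200 had 518 and 313 units of signal in shoots and 290 and 340 in roots at 0.5 h of heat, against 18.02 and 15.1 in shoots and 21.4 and 37.6 in roots at 21 h of recovery. The log2 difference was 3.91 ± 0.24 in shoots (SE, limma's adjusted p = 2.3e-11) and 3.03 ± 0.24 in roots (adjusted p = 5.7e-09). All heated arrays lay far above the baseline arrays. By 0.25 h of heat this gene stood at 16.6 and 29.4 in shoots and 80.7 and 117 in roots.

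AT1G14200 had 620 and 343 in shoots and 446 and 441 in roots at 0.5 h of heat, against 40.3 and 38.5 in shoots and 19.8 and 19.8 in roots at 21 h of recovery. It was higher by 3.23 ± 0.17 in shoots and 3.88 ± 0.17 in roots (adjusted p = 1.6e-12 and 1.4e-13). At 1 h and 3 h of heat it had 1386 and 1291 and then 366 and 292 in shoots, and 1298 and 1426 and then 516 and 502 in roots. Mean signal at 1 h was thus 407% of that at 3 h in shoots and 268% in roots, the highest such ratio of all members in each tissue, and every 3 h array lay below the 1 h arrays while the plants were still at 38 °C. After 1 h of recovery it stood at 25.98 and 22.4 in shoots and 19.2 and 20.6 in roots. In roots that is 3.91% of the 3 h level.

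AT1G26800 had 459 and 274 in shoots and 342 and 307 in roots at 0.5 h of heat, against 39.2 and 44.4 in shoots and 48.9 and 28.7 in roots at 21 h of recovery (log2 differences 2.79 ± 0.17 and 2.78 ± 0.17, adjusted p = 1.2e-11 and 2.9e-11). At 1 h of heat it reached 2054 and 2010 in shoots and 1478 and 1623 in roots, 5.28 and 4.998 above 21 h of recovery. It then stayed low throughout recovery, between 29.6 and 44.4 on the 8 shoot arrays and between 28.7 and 73.4 on the 8 root arrays.

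The remaining ubiquitin-related members were slower. AT1G55530, also of RING type, was higher at 0.5 h of heat than at 21 h of recovery by 1.37 ± 0.14 in shoots and 1.19 ± 0.14 in roots; without replicate 2 of roots at 0.5 h the root value was 0.98, short of the threshold. AT5G18340 carries a U-box, another ubiquitin ligase fold, and AT4G15420 belongs to the UFD1 family, whose members help to extract ubiquitinated proteins for degradation. AT4G15420 had 1434 and 1347 in shoots and 1454 and 1289 in roots at 1 h of heat, against 125 and 106 in shoots and 165 and 129 in roots at 0.5 h. That rise of 3.48 ± 0.12 in shoots and 3.13 ± 0.12 in roots passed (adjusted p = 6.1e-17 and 6.9e-16). AT4G15420 also kept more of its 3 h signal at 1 h of recovery than the other ubiquitin-related members in shoots, 18.7%.

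AT2G41160, with a ubiquitin-associated domain, was lower in shoots than in roots. It had 210 and 159 in shoots at 0.5 h of heat, against 439 and 498 in roots (log2 difference −1.30 ± 0.12, adjusted p = 4.5e-10). At 21 h of recovery it had 98.3 and 88.4 in shoots and 280 and 274 in roots (−1.47 ± 0.12), and at 1 h of heat the difference of −0.83 ± 0.12 stayed short of the size threshold. In roots it rose to 2197 and 2092 at 1 h of heat and still had 620 and 666 at 1 h of recovery, the highest share left among the named members in roots, 23.2%. All 6 ubiquitin-related members were among the 52 members in shoots and the 51 in roots that rose between 0.5 h and 1 h of heat.

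Of the 3 co-chaperone members, SGT1A is known to work with HSP90 and with ubiquitin ligases, and AT1G30070 carries the SGS domain that SGT1 proteins share. SGT1A was the named member with the largest excess in shoots. It had 2442 and 1985 in shoots, against 584 and 609 in roots, at 1 h of heat (log2 difference 1.87 ± 0.21, adjusted p = 1.2e-08), and 682 and 401 against 141 and 125 at 0.5 h (1.90 ± 0.21, adjusted p = 9.0e-09). The bias was also present at 21 h of recovery, with 99.9 and 111 in shoots and 41.4 and 44.7 in roots (1.10 ± 0.21, adjusted p = 3.5e-05), but not at 3 h of recovery (0.20 ± 0.21). The rise from 0.5 h to 1 h was 2.05 ± 0.21 in shoots and 2.08 ± 0.21 in roots.

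AT1G30070 had 4151 and 3806 in shoots and 2588 and 2288 in roots at 1 h of heat, against 575 and 325 in shoots and 298 and 335 in roots at 0.5 h. The rise was 3.17 ± 0.22 in shoots and 2.90 ± 0.22 in roots (adjusted p = 2.6e-11 and 2.0e-10). At 3 h of heat it had 2733 and 2602 in shoots and 2507 and 2459 in roots, and at 1 h of recovery 205 and 226 in shoots and 398 and 539 in roots. Its shoot signal went on falling to 24.3 and 27.7 at 3 h of recovery, below the 134 and 137 at 21 h of recovery (−1.99 ± 0.22, adjusted p = 4.5e-08).

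AT3G14200 had the smallest share left of all members in shoots. It had 500 and 433 at 3 h of heat and 1.79 and 1.69 at 1 h of recovery there, 0.373% of the heat level. Such signals are at the bottom of the array's range, so the percentage is rough. In roots 53.2 and 32.8 units were left. Between 0.5 h and 1 h of heat it did not pass in shoots (0.90 ± 0.24), and rose by 1.39 ± 0.24 in roots.

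**Figure D4:**
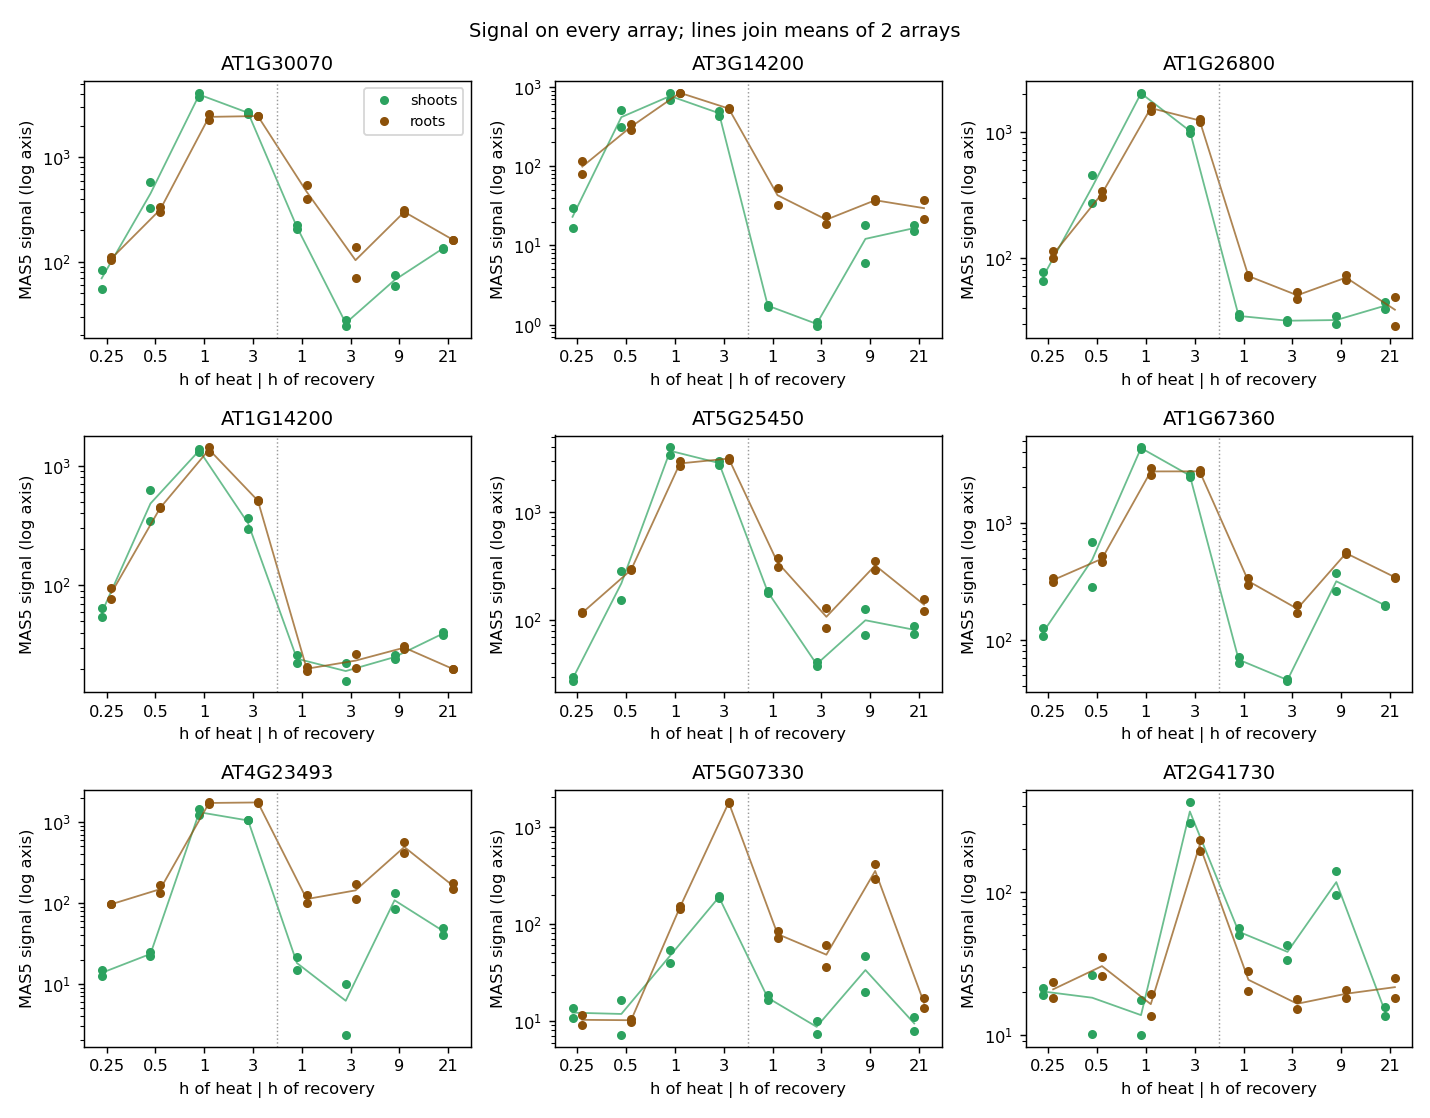
MAS5 signal (log axis) on every array for 9 named members, shoots in green and roots in brown, with lines through the means of 2 arrays; hours of heat lie left and hours of recovery right of the dotted line. AT1G14200 peaks at 1 h of heat in both tissues, AT5G07330 and AT2G41730 at 3 h, and AT4G23493 lies lower in shoots than in roots at all 8 times.

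Among members of other known families, AT5G25450 and AT1G67360 were the brightest named probe sets. AT5G25450 belongs to the family of a small subunit of respiratory complex III. It had 3996 and 3400 in shoots and 3000 and 2649 in roots at 1 h of heat, against 285 and 152 in shoots and 289 and 295 in roots at 0.5 h. The rise was 4.07 ± 0.21 in shoots and 3.22 ± 0.21 in roots (adjusted p = 1.2e-13 and 2.2e-11), and the difference between these rises did not pass (0.85 ± 0.30, adjusted p = 0.094). At 3 h of heat it had 2976 and 2723 in shoots and 3201 and 3069 in roots, and at 1 h of recovery 186 and 178 in shoots and 309 and 375 in roots. Relative to 21 h of recovery it was the named member with the largest difference at 1 h of heat in shoots, 5.33 ± 0.21.

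AT1G67360 encodes a protein associated with lipid droplets, the stores of neutral lipid. It had 4407 and 4259 in shoots and 2930 and 2539 in roots at 1 h of heat, against 679 and 284 in shoots and 463 and 519 in roots at 0.5 h (log2 differences 3.27 ± 0.21 and 2.45 ± 0.21). At 1 h of recovery it had 71.6 and 63.1 in shoots and 293 and 338 in roots, against 2606 and 2437 in shoots and 2821 and 2658 in roots at 3 h of heat. In roots that is about the level at 0.25 h of heat, 311 and 334, whereas shoots had fallen below their 0.25 h values of 108 and 125. Its call at 0.5 h of heat in shoots (1.12 against 21 h of recovery) was lost without replicate 1, at 0.51.

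AT1G72660, a GTPase of the DRG family, whose yeast relatives bind ribosomes, made the largest step of all named members. It had 1007 and 1006 in shoots and 649 and 636 in roots at 1 h of heat, against 15.68 and 10.7 in shoots and 14.2 and 12.6 in roots at 0.5 h. The rise was 5.40 ± 0.17 in shoots and 4.74 ± 0.17 in roots (adjusted p = 6.9e-18 and 8.5e-17). It differed from most shoot members in rising further to 1507 and 1325 at 3 h of heat, and in roots to 1672 and 1716. An unnamed member rose by more, 6.42 in shoots and 5.62 in roots.

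AT3G07090, of the PPPDE family of putative thiol peptidases, already had high signal when heated for 0.25 h, 325 and 419 in shoots and 498 and 554 in roots. At 0.5 h it had 1318 and 850 in shoots and 1053 and 1093 in roots, against 343 and 300 in shoots and 405 and 443 in roots at 21 h of recovery (log2 differences 1.69 ± 0.14 and 1.32 ± 0.14). AT4G05070, of a wound-responsive family, was likewise early, with 692 and 470 in shoots and 638 and 698 in roots at 0.5 h, against 94.8 and 113 in shoots and 149 and 123 in roots at 21 h of recovery. Both were therefore high before the general rise at 1 h. AT4G05070 rose by only 1.24 ± 0.18 from 0.5 h to 1 h in shoots, a call lost without replicate 2 of shoots at 0.5 h (0.97), and did not pass in roots (0.89 ± 0.18).

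AT1G73480, of the monoacylglycerol lipase family, rose by 2.03 ± 0.20 in shoots and 1.99 ± 0.20 in roots from 0.5 h to 1 h of heat, and AT4G09150, of the T-complex 11 family, by 3.22 ± 0.14 and 3.20 ± 0.14. AT1G66510, whose family helps to assemble the spliceosome, rose by 2.73 ± 0.15 in shoots and 2.401 ± 0.15 in roots. AT5G23480, with SWIB and Plus-3 domains found in chromatin proteins, and AT3G17110, the pseudogene, were dim. AT3G17110 had 64.1 and 51.2 in shoots at 1 h of heat, against 1.47 and 0.968 at 0.5 h, and in roots its arrays disagreed at 3 h of heat (176 and 59.1). In all, the 10 members of other known families rose in shoots between 0.5 h and 1 h of heat, and 9 did in roots, AT4G05070 being the exception.

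Little is known about the products of 9 named members. AT2G41730 was still at 17.5 and 9.95 in shoots and 13.5 and 19.3 in roots at 1 h of heat, then had 304 and 431 in shoots and 193 and 234 in roots at 3 h. It was the only member that did not differ from 21 h of recovery at 1 h of heat (−0.06 ± 0.23 in shoots, −0.25 ± 0.23 in roots, adjusted p = 0.86 and 0.40). Its probe set is of a type that can also bind other transcripts, so the signal cannot be assigned to AT2G41730 alone.

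AT5G07330 was also late, and rose more in roots. It had 39.7 and 54.4 in shoots and 153 and 143 in roots at 1 h of heat, against 7.16 and 16.5 in shoots and 9.84 and 10.5 in roots at 0.5 h. At 3 h of heat it had 184 and 192 in shoots and 1732 and 1807 in roots. The step from 0.5 h to 1 h was 1.37 ± 0.23 in shoots and 2.91 ± 0.23 in roots, and the tissue difference at 1 h of heat was −1.46 ± 0.23 (adjusted p = 3.2e-06).

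AT4G23493 had a lower mean in shoots than in roots at all 8 times. It had 22.1 and 24.9 in shoots, against 131 and 166 in roots, at 0.5 h of heat (−2.20 ± 0.21, adjusted p = 6.6e-10). At 1 h of heat it had 1434 and 1218 in shoots and 1761 and 1687 in roots, where the tissue difference was −0.38 ± 0.21 and did not pass (adjusted p = 0.10). The groups did not overlap at either hour, but at 1 h they were close. The step from 0.5 h to 1 h was 5.27 ± 0.21 in shoots and 3.45 ± 0.21 in roots.

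AT5G35320 had 2479 and 2273 in shoots and 2201 and 2076 in roots at 1 h of heat, and was already higher at 0.5 h than at 21 h of recovery in shoots (521 and 252 against 116 and 98.3, log2 difference 1.66 ± 0.20). AT5G19875 continued to rise after 1 h, to 555 and 584 in shoots and 979 and 1275 in roots at 3 h of heat. AT3G07150 rose by 3.56 ± 0.16 in shoots and 3.05 ± 0.16 in roots from 0.5 h to 1 h, and AT1G44414 by 3.90 ± 0.23 and 3.07 ± 0.23. AT1G35660 rose by 2.21 ± 0.14 and 1.83 ± 0.14, and AT4G17250 by 3.36 ± 0.17 and 2.30 ± 0.17. Of the 9, all but AT2G41730 rose at this step in both tissues.

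Signal at 1 h of heat exceeded that at 3 h for 43 members in shoots and for 16 in roots; the 16 were among the 43, and 11 members were higher at 3 h in both tissues. The median ratio of 1 h to 3 h was 129% in shoots and 84.6% in roots. These counts share the 3 h arrays with the selection and were not tested. The share of all probe sets with more signal at 1 h than at 3 h of heat was not counted, so no background stands beside them. Among the 16 were AT1G14200, AT1G26800, AT3G14200, SGT1A, AT4G15420, AT3G07090 and AT5G35320. Among the 11 were AT1G55530, AT5G18340, AT1G72660, AT5G07330, AT5G19875, AT3G07150 and AT2G41730.

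At 3 h of recovery the mean signal was lower than at 1 h for 50 members in shoots and 46 in roots, against 48.4% and 48.5% of all probe sets. These counts share the 1 h arrays with the selection and were not tested. In shoots 17 members were below their level at 21 h of recovery and 2 were above it (background 4.66% lower and 5.64% higher), and the median log2 difference was −0.57, against 0.07 among all probe sets. In roots none was below and 6 were above (background 1.39% and 1.8%), with a median of −0.19 against 0.02; at an unadjusted p under 0.05, 16 members were lower in roots and 11 higher. Ribosomal RNA signal was raised at 3 h of recovery in both tissues.

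Among named members, the largest deficits against 21 h of recovery in shoots were those of AT5G19875, AT1G73480 and AT3G07090. AT5G19875 had 12.7 and 10.6 at 3 h of recovery, against 83.9 and 127 at 21 h (−2.34 ± 0.19, adjusted p = 2.4e-10). AT1G73480 had 48.7 and 36.4, against 261 and 226 (−2.25 ± 0.20, adjusted p = 7.6e-10), and AT3G07090 had 63.5 and 56.4, against 343 and 300 (−2.23 ± 0.14, adjusted p = 1.6e-12). In each case the groups were well apart. Unnamed members reached −3.91. All 3 co-chaperone members were also below 21 h of recovery in shoots: AT1G30070 as given above, SGT1A by −1.32 ± 0.21 and AT3G14200 by −1.19 ± 0.24. The SGT1A call was lost without replicate 2 at 3 h of recovery (−0.92). The shoot baseline of AT3G14200 at 21 h of recovery, given above, lay below the array medians of 36.1 and 37.0. Its deficit was thus measured at low signal and is rough.

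AT4G05070 went the other way in both tissues. It had 224 and 213 in shoots and 349 and 371 in roots at 3 h of recovery, against 94.8 and 113 in shoots and 149 and 123 in roots at 21 h (1.00 ± 0.18 and 1.34 ± 0.18, adjusted p = 8.6e-05 and 8.4e-06). The shoot value lies on the threshold and fell to 0.97 or 0.89 without replicate 1 at 3 h or at 21 h of recovery. Its signal at 3 h of recovery was also above that at 1 h, 129 and 105 in shoots and 119 and 124 in roots. In roots AT1G72660 was likewise above 21 h of recovery, with 47.2 and 53.4 against 18.48 and 16.1 (1.12 ± 0.17), and so was AT5G07330 (1.14 ± 0.23). The call of AT5G07330 was lost without replicate 2 at 3 h of recovery (0.84).

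Shoots lay below roots at 3 h of recovery. Of the 54 members 25 were lower in shoots and none was higher (background 18% lower and 14.9% higher; 44 lower and 1 higher at an unadjusted p under 0.05), with a median of −0.85, against −0.24 among all probe sets. At 0.5 h of heat 9 were lower and 4 higher (background 20.3% and 14.7%), at 1 h of heat 3 lower and 5 higher (19.9% and 14.2%), and at 21 h of recovery 7 lower and 2 higher (21.7% and 15.5%). AT4G23493 had 10.1 and 2.33 in shoots, against 113 and 173 in roots, at 3 h of recovery (−3.18 ± 0.21, adjusted p = 5.4e-13), AT5G19875 12.7 and 10.6 against 100 and 84.3 (−2.19 ± 0.19), and AT3G07090 63.5 and 56.4 against 224 and 251 (−1.81 ± 0.14). AT4G23493 was already lower in shoots at 21 h of recovery (−1.64 ± 0.21), where AT5G19875 (−0.70 ± 0.19) and AT3G07090 (−0.39 ± 0.14) did not pass.

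Between 3 h and 9 h of recovery many members rose again, without heat. At 9 h the mean log2 signal was above that at 3 h of recovery for 48 of 54 members in shoots and 52 in roots. Among all probe sets tested this held for 42.2% in shoots and 47.7% in roots. The difference passed for 21 members in shoots, all higher (background 2.99% higher and 2.54% lower), and for 18 in roots, 17 higher and 1 lower (background 1.28% and 2.17%). The median log2 difference was 0.71, against −0.06 among all probe sets, in shoots, and 0.72 against −0.02 in roots. The 11 that rose in both tissues are 52.38% of the shoot calls and 64.71% of the root calls, and the 6 named among them were AT1G30070, AT1G67360, AT4G23493, AT5G07330, AT5G19875 and AT5G25450. Among the 6 ubiquitin-related members AT1G55530 rose in shoots at this step (1.12 ± 0.14) and none passed in roots; whether they differ from the other members was not tested.

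AT5G19875 made the largest named step in shoots, with 164 and 170 at 9 h of recovery, against 12.7 and 10.6 at 3 h (2.97 ± 0.19, adjusted p = 1.8e-11), and 310 and 319 against 100 and 84.3 in roots (1.66 ± 0.19). AT4G23493 had 132 and 83.9 in shoots and 575 and 410 in roots at 9 h, against 10.1 and 2.33 in shoots and 113 and 173 in roots at 3 h (2.80 ± 0.21 and 1.71 ± 0.21). The lipid droplet gene AT1G67360 had 370 and 260 in shoots and 538 and 556 in roots, against 44.6 and 45.7 in shoots and 169 and 198 in roots (2.52 ± 0.21 and 1.53 ± 0.21, adjusted p = 1.5e-09 and 9.8e-06). For all 3 the 9 h arrays lay above the 3 h arrays in each tissue.

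In roots AT5G07330 rose most, with 408 and 292 at 9 h of recovery, against 36.2 and 60.0 at 3 h (2.62 ± 0.23, adjusted p = 1.0e-08). In shoots the same gene had 47.1 and 19.8, against 10.01 and 7.42 (1.10 ± 0.23), and this call, like those of AT1G30070 (1.07 ± 0.22) and AT5G25450 (1.10 ± 0.21), was lost without replicate 1 of shoots at 9 h of recovery (0.65, 0.93 and 0.75). That array was higher than its replicate for 43 of 54 members, by a median of 0.23, and is the one with 1270 units of ribosomal RNA signal. In roots AT5G25450 had 354 and 289 against 85.0 and 130, and AT1G30070 had 291 and 311 against 69.7 and 138, a rise of 1.51 for both. AT4G05070 was the 1 member that fell, to 114 and 108 at 9 h in roots, against 349 and 371 at 3 h (−1.60 ± 0.18, adjusted p = 8.2e-07).

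**Figure D5:**
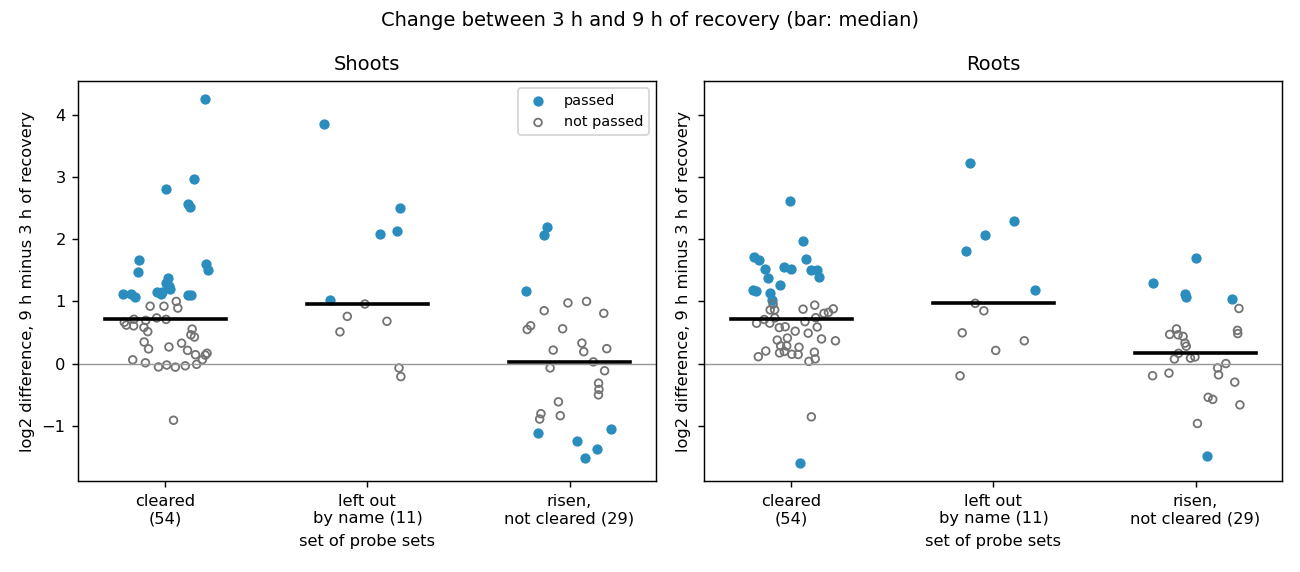
Log2 difference of 9 h minus 3 h of recovery for the 54 members, the 11 probe sets with the same course that were left out by name, and 29 named nuclear genes that met the same minimum rise but were not cleared; filled points passed and bars are medians. The median is 0.71 in shoots and 0.72 in roots for the members, 0.96 and 0.97 for the 11, and 0.03 and 0.16 for the 29. The 29 missed the fall by 1 h of recovery in at least 1 tissue. Differences from the members here are not independent of that choice and were not tested.

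Most members did not pass a comparison of 9 h with 21 h of recovery. In shoots 6 members were above and 2 below that level at 9 h (background 2.95% and 2.24%), and in roots 14 were above and none below (background 1.11% and 0.924%). The median log2 difference was 0.12 in shoots, against 0.01 among all probe sets, and 0.57 against −0.01 in roots. At an unadjusted p under 0.05 in limma, 15 members were higher and 9 lower in shoots, and 35 higher and 0 lower in roots. The share of all probe sets at that unadjusted level was not counted, so no background stands beside these counts. By sign alone, the difference was positive in roots for 85.2% of members and 48.6% of all probe sets tested. In shoots it was positive for 61.1% and 51.9%. AT5G07330 stood out in roots, with 408 and 292 at 9 h of recovery, against 17.37 and 13.5 at 21 h (3.76 ± 0.23, adjusted p = 9.7e-12), followed among named members by AT1G72660 with 116 and 110 against 18.48 and 16.1 (2.14 ± 0.17) and AT4G23493 with 575 and 410 against 179 and 147 (1.52 ± 0.21). In shoots AT2G41730 had 140 and 94.98, against 13.5 and 15.6 (2.31 ± 0.23, adjusted p = 1.3e-08), while roots showed 18.1 and 20.7 against 18.2 and 25.0.

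The shoot calls of AT4G23493 (1.07 ± 0.21) and AT5G07330 (1.05 ± 0.23) at 9 h against 21 h of recovery were lost without replicate 1 at 9 h, at 0.77 and 0.60. AT1G73480 remained low in shoots, with 42.4 and 46.8 at 9 h of recovery, against 261 and 226 at 21 h (−2.19 ± 0.20, adjusted p = 2.7e-09). AT3G07090 had 149 and 144, against 343 and 300 (−1.08 ± 0.14), a call lost without replicate 1 at 21 h (−0.98).

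The 11 probe sets with the same course that had been left out by name, among them HSP26.5, HSP15.7 and HSP23.5, had a median of 3.40% of their 3 h signal left after 1 h of recovery in shoots and 6.92% in roots. Between 3 h and 9 h of recovery 5 of these 11 rose in each tissue and none fell. The 29 named nuclear genes that met the same minimum rise by 3 h of heat but not the condition on recovery, among them HSA32, AT3G12050 and Cpn60beta2, rose by a median of 2.88 in shoots and 2.63 in roots. They had a median of 27.8% left in shoots (3.38 to 79.3%) and 34.4% in roots (12.7 to 88.1%), as their choice implies. A gene that missed the fall in 1 tissue alone is among them, so some had fallen in the other tissue as members did. Between 3 h and 9 h of recovery 3 of the 29 rose and 5 fell in shoots, and 5 rose and 1 fell in roots. At 3 h of recovery 8 of the 29 were above and 3 below 21 h of recovery in shoots, where 2 members were above and 17 below. Members and the 29 were split on their fall by 1 h of recovery. Contrasts between them that use 3 h of recovery are not independent of that split. The differences between these sets were not tested. In gene length, the 28 named members had a median of 1796 bases, the 11 had 1329, the 29 had 2099 and all 13333 named loci had 2103.

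Lists of chaperone and RNA turnover genes were made with earlier results of these data known. For cytosolic co-chaperones 9 of 18 loci were measured, SGT1A and Fes1A among them. Between 0.5 h and 1 h of heat 7 of the 9 rose in shoots and 6 in roots. SGT1A is a member, Fes1A one of the 11 left out by name and AT3G12050 one of the 29 not cleared. All were chosen on a rise by 3 h of heat, so their rises at this step are not independent of that choice. Among all probe sets tested, 2.43% rose and 1.41% fell in shoots at that step, and 2.16% rose and 0.953% fell in roots. None of 7 measured genes for the CCT chaperonin, which folds newly made proteins, passed at that step in limma, with 2 lower in shoots and 0 in roots at an unadjusted p under 0.05. None of 9 measured genes for mRNA decay passed there either, with medians of −0.36 in shoots and −0.40 in roots, and 5 in shoots and 7 in roots were lower at an unadjusted p under 0.05. Heat shock factors and SR splicing factors are not analysed here.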

How the data were processed

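Total RNA of 32 samples had been hybridised to ATH1 arrays. The deposited values are intensity, the MAS5 signal of each probe set, made by the authors with MAS5 per the submitters' processing notes; its version is not given in the sources used here. From the values, each array had a trimmed mean of 99.9 to 100.0, so the authors had scaled the arrays alike, and no further scaling was applied here. No detection calls were used, and the number of arrays limits the precision.

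The table held 22810 probe sets, of which 64 controls were left out. GEO's platform annotation named 1 gene for 13513 probe sets, several for 503 and none for 8730; 13436 were matched to RefSeq (TAIR10.1) by gene identifier, 48 by locus and 29 not at all. A linear model of 16 group means was fitted to log2(signal + 11) with limma 3.58.1 in R 4.3.3 (eBayes with trend, 16 residual degrees of freedom, median prior 8.27) over 16782 probe sets. These exceeded the 40th percentile of the array on each array of some group; 5964 did not and were removed. P-values were adjusted by Benjamini-Hochberg within each of 17 contrasts. The hours that chose the members (0.25 h and 3 h of heat, 1 h of recovery) entered no contrast. Their arrays did enter the estimate of the spread, which all 16 groups share. The fit was tested on simulated data. Tables and figures used Python 3.11.15, pandas 2.3.3, numpy 2.4.6 and matplotlib 3.10.9.

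The members, gene lists and tests were chosen with earlier results of these data known. The roles of members and the set of 29 genes that were not cleared were added after seeing the values. That set took the place of a planned set of 13 probe sets kept high at 1 h of recovery, of which 2 matched 1 nuclear gene. Any member matching 1 gene could be named, with array values for the brightest 10, the 3 largest passed differences each way per contrast and those differing between tissues. Same-numbered replicates of different groups did not deviate together (120 pairs of groups, r from −0.193 to 0.161), so they were not treated as pairs. Another constant, filter, scaling or variance model, a replicate block and leaving out each array were tried as alternatives.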

Additional observations from a re-analysis of the deposited data

Results flagged for a closer look

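The rise between 0.5 h and 1 h of heat differed between shoots and roots for 8 of 54 members, 7 with the larger rise in shoots and 1 with the larger rise in roots (background 1.66% and 1.09%), of which 3 are named. AT4G23493 rose more in shoots than in roots by 1.82 ± 0.29 log2 units (SE, limma's adjusted p = 0.00033); it had 22.1 and 24.9 units of signal in shoots and 131 and 166 in roots at 0.5 h, and 1434 and 1218 in shoots and 1761 and 1687 in roots at 1 h. AT4G17250, whose function is little known, rose more in shoots by 1.05 ± 0.24 (adjusted p = 0.0077), with 31.5 and 19.8 in shoots and 31.5 and 22.4 in roots at 0.5 h, and 391 and 331 in shoots and 176 and 174 in roots at 1 h. That call was lost without replicate 2 of shoots at 0.5 h (0.82, adjusted p = 0.056), without replicate 1 of roots at 0.5 h (0.88) and without replicate 1 of shoots at 1 h (0.94). AT5G07330 rose less in shoots than in roots, with a difference of −1.54 ± 0.32 (adjusted p = 0.0036). Without replicate 1 of shoots at 0.5 h, on which 48 of 54 members were higher than on replicate 2, the number of members that differed was 13 in place of 8.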

How the results depend on the processing

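Of 126 comparisons of a count with its value under another processing, arrays left out aside, 114 stayed within 1.5 times. With 44 added before the log2 in place of 11, which shrinks changes at low signal, fewer members passed: in shoots 9 at 3 h against 21 h of recovery (0 higher, 9 lower), 2 at 9 h against 21 h (1 higher, 1 lower) and 8 at 9 h against 3 h; in roots 2 at 3 h and 8 at 9 h against 21 h; between tissues 8 at 0.5 h of heat, 5 at 1 h of heat and 15 at 3 h of recovery; and 4 for the difference between the rises. With 3 added, 15 differed between tissues at 21 h of recovery. A threshold of 1.5 in the rule gave 115 members and one of 2.5 gave 34; with 44 or 3 added there were 39 or 64, with each array divided by its 75th percentile 66, and with quantile normalization 55. Leaving out each array in turn gave 52 to 58 members, 7 to 13 for the difference between the rises and 5 to 9 at 9 h against 21 h of recovery in shoots, where without replicate 1 at 9 h the balance turned to 3 higher and 4 lower of 7. That count was 5 without replicate 1 at 21 h of recovery. Quantile normalization moved the split between tissues at 1 h of heat to 5 higher and 5 lower in shoots than in roots, at 3 h against 21 h of recovery in shoots to 0 higher and 17 lower, at 21 h of recovery between tissues to 3 higher and 6 lower, and for the difference between the rises to 5 and 2; division by the 75th percentile gave 8 higher and 2 lower in shoots than in roots at 1 h of heat. The causes were not tested. The replicate number as a block changed no count; 52 members rose from 0.5 h to 1 h of heat in shoots with it, as without. A group left with 1 array is assumed to vary like the others. The motif shares of promoters were not run, as no sequences were used here.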
